A study of Mus musculus with 12 samples.

Results

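This comparison took 4 of the 12 libraries of the series, and all 4 were prepared from neuronal nuclei of wild-type C57B/6JRj mice given the oral vehicle, 18 g/L cyclodextrin in water. One group of mice was 3 months old (young) and the other 20 months old (aged). Each group had 1 library of chromatin immunoprecipitated for acetylated lysine 12 of histone H4 (H4K12ac ChIP-seq) and 1 library of its input, the same kind of chromatin sequenced without the antibody. The 4 libraries are those that the labels give this population, these ages and this treatment, and the rule has no threshold on a measured value. The column headers name CA1, a field of the hippocampus. The labels do not say how the nuclei were sorted or whether animals were pooled. With 1 library per group there is no error between animals and no test of age, and every value below compares these libraries. Intervals and counting errors cover the counting of reads only.

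H4K12ac is placed on nucleosomes by histone acetyltransferases and removed by histone deacetylases. It marks the nucleosomes around the start sites of active genes, and in the hippocampus it has been studied for its link to memory formation and ageing. An active promoter usually has a stretch poor in nucleosomes just upstream of the transcription start site (TSS), between a nucleosome upstream (-1) and one downstream (+1). In neurons, acetylation at promoters is tied to the transcription that follows activity.

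Each file holds 1 average profile, 4001 values from 2000 bp upstream to 2001 bp downstream of the TSS, with no gene names. The identity of the nuclei could therefore not be checked against marker genes. A lower average can come from less of the mark per nucleus, from fewer nuclei carrying it or from fewer genes carrying it. With 1 immunoprecipitated library per age, it can also come from the immunoprecipitation itself. These cannot be told apart. Signal values below are those of the files times 1000. In the files, signal comes in whole multiples of a smallest unit, whose inverse, the divisor, is taken here as a proxy of depth. The unit corresponds to a divisor of 36400000 in the young and 65700000 in the aged H4K12ac library, and of 53800000 and 42200000 in their inputs. The divisor of the aged H4K12ac library is thus 1.80 times that of the young one, and whether this bears on its level was not tested. Levels are set side by side on the scale the authors gave them, whose factor the sources used here do not state.

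The aged H4K12ac signal was below the young one at almost every position, though not beyond counting error at the upstream end. The gap was concentrated at the TSS. The signal was lower at 3992 of 4001 positions. The 9 exceptions lay between 1856 and 1808 bp upstream, where the aged library was higher by at most 0.0744%. From 2000 to 1501 bp upstream the log2 difference of aged over young was -0.0066 (95% counting interval -0.014 to 0.00079). Counting error thus does not separate the libraries in that stretch, which holds the 9 exceptions. From 1501 to 2000 bp downstream the log2 difference was -0.014 (-0.022 to -0.0073). At the far ends of the window, the outermost 400 positions on each side (the flank), the mean signal was 5.14 in the young and 5.10 in the aged library, -0.647%. The maximum, by contrast, was 14.7 for the young library, 222 bp downstream, and 12.3 for the aged one, 228 bp downstream (-16.8%). The young profile thus reached 2.87 times its flank and the aged profile 2.40 times.

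**Figure D1:**
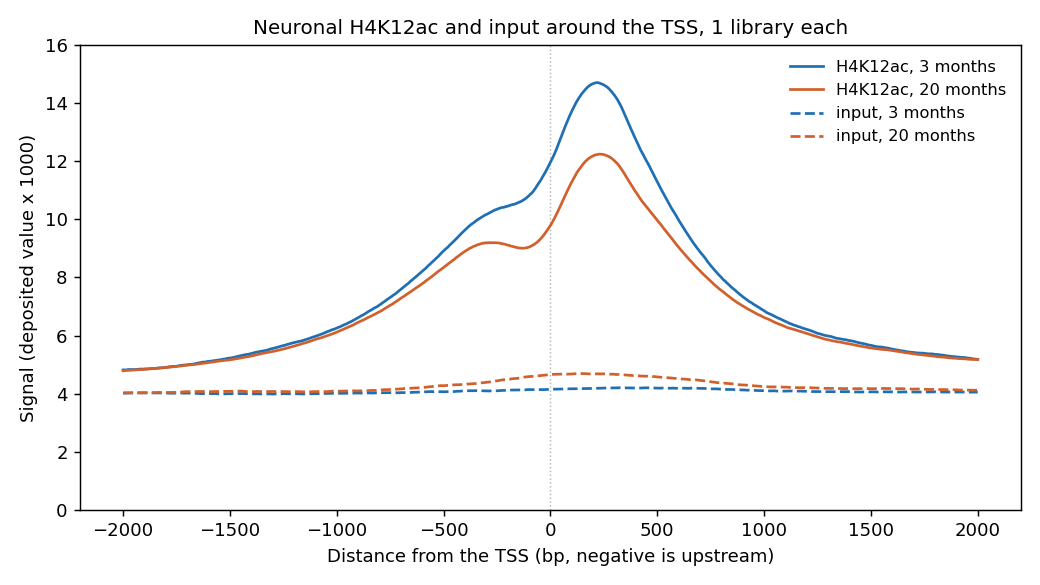
Signal (file value times 1000, vertical axis) against distance from the TSS in bp, for the young (blue) and aged (orange) neuronal H4K12ac libraries (solid) and their inputs (dashed), 1 library per line. The H4K12ac lines meet at the ends of the window and part near the TSS, with maxima of 14.7 and 12.3.

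Read from the outside in, the gap opened slowly and then steeply. Between 1000 and 901 bp upstream the signal was 6.42 in the young and 6.28 in the aged library (-2.28%), and between 500 and 401 bp upstream it was 9.27 and 8.62 (-6.92%). It was 10.6 and 9.04 between 200 and 101 bp upstream (-14.7%). In the first 100 bp downstream it reached 12.8 and 10.5 (-18.0%), the widest relative gap of the 40 regions of 100 bp. From there it narrowed, to 13.6 and 11.5 between 301 and 400 bp (-15.1%), 9.41 and 8.63 between 601 and 700 bp (-8.34%) and 6.66 and 6.46 between 1001 and 1100 bp (-3.00%). The relative gap was widest 3 bp downstream of the TSS. In signal units it was widest 194 bp downstream, close to the maximum, where 14.7 stood against 12.2, a gap of 2.49.

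Of all 4001 positions, 849, or 21.2%, were lower by over 10% in the aged library. They formed 1 unbroken run from 286 bp upstream to 563 bp downstream. Within it, 499 positions from 141 bp upstream to 358 bp downstream were lower by over 15%. Neighbouring positions share reads, so these counts measure the length of the affected stretch and are not independent observations.

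The missing signal was summed along the profile to see where it lay. It came to 7.47% of the young signal over the whole window. The positions within 500 bp of the TSS held 73.3% of the deficit, and those within 1000 bp held 93.0%. The young signal was itself highest there, with a mean of 11.9 within 500 bp and 9.95 within 1000 bp, against 5.14 over the flank. Shares of the deficit near the TSS therefore also reflect where the peak lies. The share of the excess over flank within these distances was not calculated. The narrowest stretch holding 50% of the deficit ran from 126 bp upstream to 396 bp downstream, 522 bp long. The first 500 bp downstream alone held 46.6%, and the 500 bp upstream held 26.7%.

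Signal above the flank was also lower by nearly the same share on both sides. Summed over the upstream side it differed by -19.5%, and over the downstream side by -21.7%. The upstream side therefore held 37.3% of the excess over flank in the young and 37.9% in the aged library. Both sides were further compared at positions where the young library had equal signal. Where the young signal was 8, at 632 bp upstream and 800 bp downstream, the aged signal was 7.62 and 7.56. Where it was 10, at 337 bp upstream and 599 bp downstream, the aged signal was 9.14 and 9.06. At the 5 levels from 6 to 10, the aged signal downstream differed from that upstream by only -0.0232 to -0.101.

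The shape of the profile differed as well as its height. Each profile was scaled from its own flank (0%) to its own maximum (100%). At 500 bp upstream the young profile had reached 39.4% of its rise and the aged profile 45.3%. At 100 bp upstream the order was the opposite, with 59.4% in the young and 55.2% in the aged profile. At the first position downstream of the TSS the values were 71.3% and 65.6%. At 500 bp downstream the aged profile was again the higher, 68.2% against 64.4%. The aged profile was thus broader at its base on both sides and more hollow just upstream of the TSS.

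**Figure D2:**
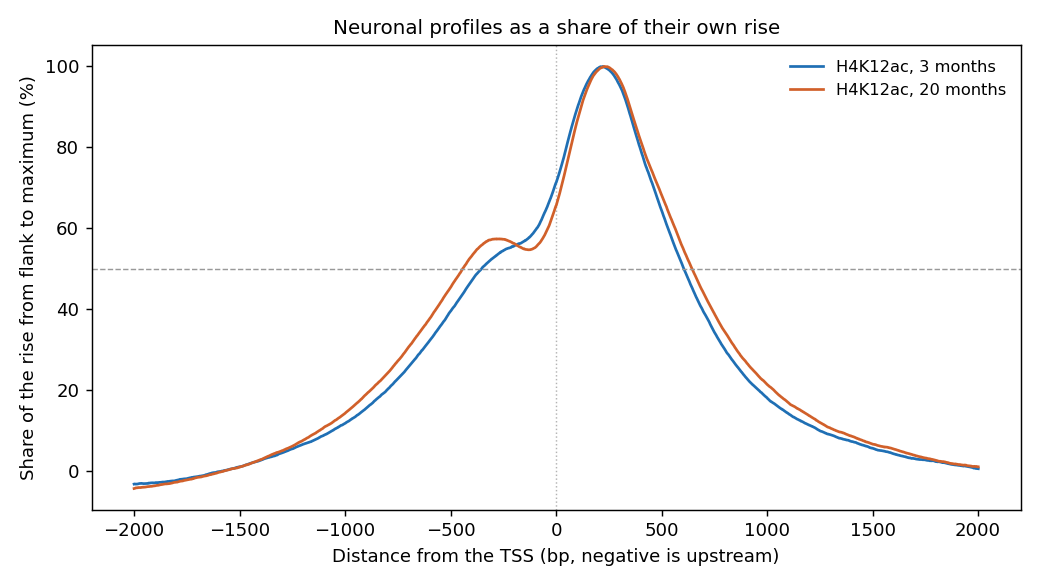
Share of each neuronal H4K12ac profile's own rise from flank (0%) to maximum (100%), against distance from the TSS in bp, for the young (blue) and aged (orange) library; the dashed line marks 50%. The aged line lies outside the young one at 500 bp on either side (45.3% against 39.4% upstream, 68.2% against 64.4% downstream) and below it at 100 bp upstream (55.2% against 59.4%).

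At 50% of the rise the young profile was 955 bp wide, from 352 bp upstream to 604 bp downstream. The aged profile was 1083 bp wide, from 441 bp upstream to 643 bp downstream. The aged profile was thus wider by 128 bp at this level (95% counting interval 117 to 139 bp), mostly on the upstream side. At 25% of the rise the widths were 1578 and 1713 bp. The young profile ran from 710 bp upstream to 869 bp downstream, and the aged one from 783 to 931 bp. At that level both edges of the aged profile lay farther out by similar amounts. Near the top, at 75% of the rise, the widths were close, 404 bp (young) against 399 bp (aged). Given counting errors of 2.2 bp (young) and 2.0 bp (aged), this difference of -5 bp gives no order.

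The deposited profiles appear blurred, with each read counted over 300 bp, a length inferred from the signal values. On that inference, steps between neighbouring positions carry the starts and ends of those stretches. The positions of read centres could then be recovered from the steps. The density of read centres is given in the same units as the signal. Recovery from the upstream and from the downstream end differed by at most 0.876% in the H4K12ac libraries and 2.44% in the inputs over the 4 windows described next.

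At this resolution both H4K12ac libraries had a shoulder upstream of the TSS and a sharp peak after it. The aged library also had a notch just before the TSS, whereas in the young library any notch was within counting error. Shoulder, notch and peak are in the order of the -1 nucleosome, the nucleosome-poor stretch and the +1 nucleosome at an active promoter. However, fragments of about 300 bp do not map single nucleosomes. The shoulder of the young library was highest 267 bp upstream and that of the aged library 265 bp upstream. The downstream peaks lay at 207 and 203 bp. Their spacing therefore differed little, while the levels did.

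At the downstream peak, 176 to 225 bp, the density was 16.2 ± 0.073 (counting error) in the young and 13.4 ± 0.048 in the aged library. On the upstream shoulder, 300 to 251 bp, it was 10.6 ± 0.061 and 9.59 ± 0.042. In the notch, 100 to 51 bp upstream, it was 10.5 ± 0.061 and 8.58 ± 0.040. The aged library was lower in each, by more than the counting errors, and least so on the shoulder.

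The notch was therefore deeper in the aged library than in the young one. Its depth, the shortfall of the notch from the shoulder, was 0.946% ± 0.81 (counting error) in the young library, with a 95% counting interval of -0.637% to 2.53% that includes 0. It was 10.6% ± 0.57 in the aged library. The difference was 9.62 percentage points (95% counting interval 7.68 to 11.6). Across regions of 50 bp the widest relative gap lay between 50 and 1 bp upstream, where 10.9 stood against 8.76 (-19.8% ± 0.58, counting error). On the shoulder the gap was -9.54%. The downstream peak kept nearly the same height relative to the notch, 1.54 times in the young and 1.57 times in the aged library. Relative to the shoulder it stood at 1.53 and 1.40 times.

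**Figure D3:**
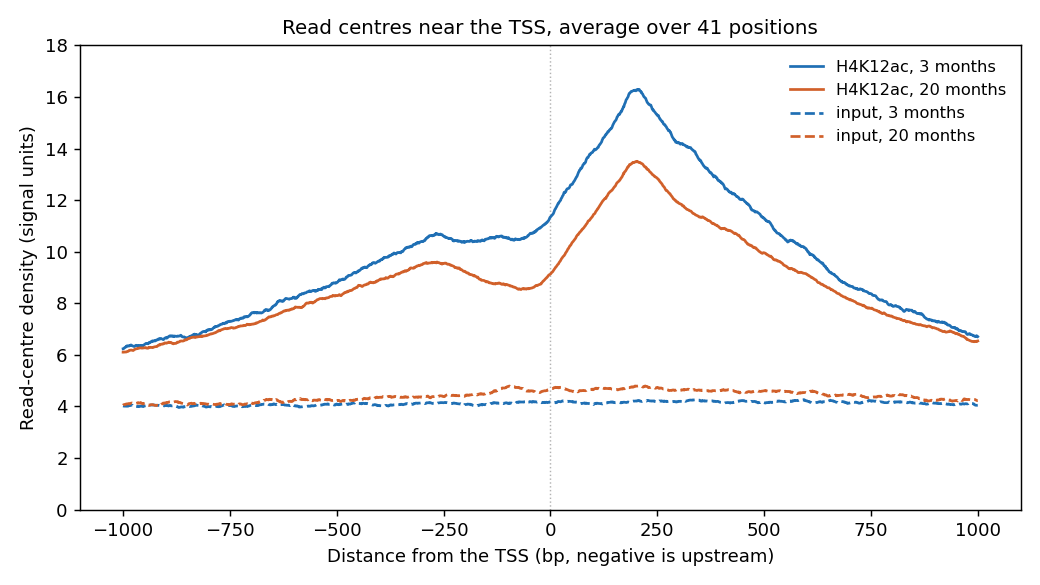
Density of read centres (signal units, averaged over 41 positions) within 1000 bp of the TSS, for the young (blue) and aged (orange) neuronal H4K12ac libraries (solid) and inputs (dashed). The aged H4K12ac line dips before the TSS between a shoulder and the downstream peak, whereas the young line is nearly level there (10.6 on the shoulder and 10.5 in the notch).

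The inputs differed the opposite way at the same place. The aged input was above the young one at 3957 of 4001 positions. Over the flank the inputs were at 4.03 and 4.09, a difference of 1.45%. In the first 100 bp downstream the input was 4.16 at 3 months and 4.67 at 20 months, 12.3% higher. The young input peaked at 4.20, 333 bp downstream, and the aged input at 4.69, 141 bp downstream. Of all positions, 13.9% had an aged input higher by over 10%, and they lay between 142 bp upstream and 417 bp downstream, within the run where H4K12ac was lower by over 10%. In the notch, the read-centre density of the input was 4.16 ± 0.033 in the young and 4.73 ± 0.039 in the aged library (counting error). What part this difference of the inputs has in the H4K12ac difference was not tested.

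Dividing each H4K12ac library by its own input therefore widened the gap. The fold over input peaked at 3.52, 214 bp downstream, in the young and at 2.62, 240 bp downstream, in the aged neuronal libraries, and was lower in the aged ones at 4001 of 4001 positions. Within 500 bp of the TSS the log2 difference was -0.36 over own input and -0.22 for H4K12ac alone (95% counting intervals -0.36 to -0.35 and -0.23 to -0.22). With each H4K12ac library divided by its own flank in place of input, the log2 difference was -0.21. The inputs supplied 37.7% of the value over own input. Their share was 36.3% between 100 and 1 bp upstream and 37.9% between 101 and 200 bp downstream. Farther out it was larger, 67.4% from 2000 to 1501 bp upstream and 69.6% from 1501 to 2000 bp downstream, where H4K12ac itself barely differed and the log2 differences over own input were only -0.020 and -0.048. Within 500 bp of the TSS the larger part thus came from the H4K12ac libraries, and in the 4 regions of 500 bp beyond 1000 bp on either side the inputs supplied over 50%. In the outermost 100 bp upstream the share was 17.6%, of a log2 difference of -0.0073 whose 95% counting interval, -0.022 to 0.0077, includes 0.

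**Figure D4:**
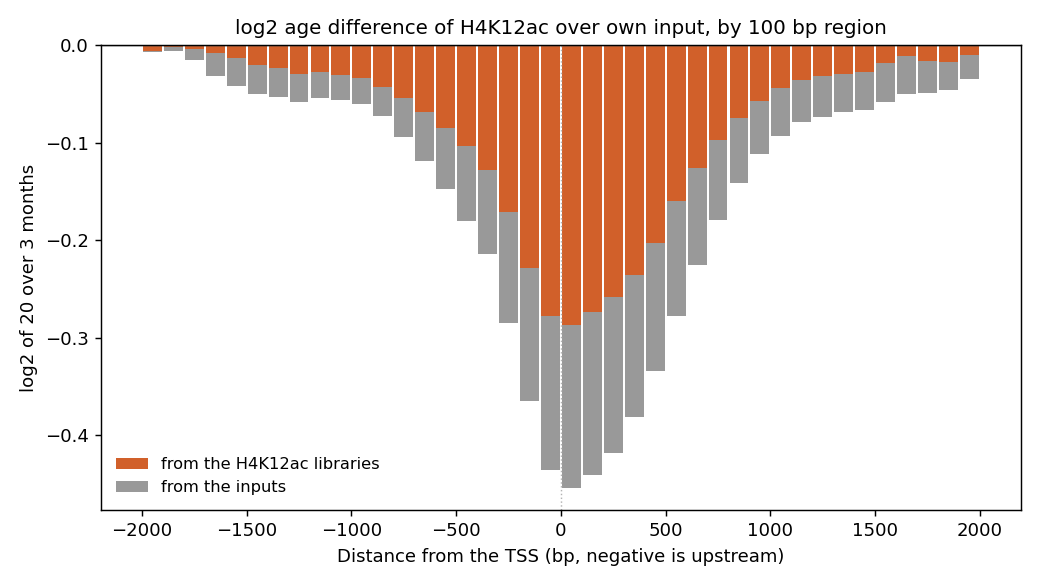
log2 difference of 20 over 3 months in H4K12ac over own input, by region of 100 bp, against distance from the TSS; orange is the part from the H4K12ac libraries and grey the part from the inputs, which add up to the bar. The bars reach -0.45 in the first 100 bp downstream, and the grey part is 37.7% of the value within 500 bp.

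The corresponding vehicle libraries of non-neuronal nuclei show where the neuronal gap stood apart. There too the aged H4K12ac library was below the young one at 4001 of 4001 positions, and 9.67% of positions, from 118 bp upstream to 269 bp downstream, were lower by over 10%. The non-neuronal gap was flatter, from -3.16% at the upstream end (2000 to 1901 bp, against -0.415% in neuronal nuclei) to -11.2% in the first 100 bp downstream (against -18.0%). The non-neuronal input was lower at 20 months as well, by nearly the same share in the first 100 bp downstream (-10.3%). Over own input the non-neuronal log2 difference was therefore only -0.015 there (-0.45 in neuronal nuclei) and -0.026 within 500 bp of the TSS (-0.36 in neuronal nuclei). The neuronal gap was the wider at 1168 positions, which lay between 414 bp upstream and 757 bp downstream, and the narrower elsewhere. In non-neuronal nuclei the notch was 8.53% deep in the young and 11.1% deep in the aged library, 2.52 percentage points apart. The difference was larger in neuronal nuclei by 7.10 points (95% counting interval 4.59 to 9.60), without a test over animals. The young neuronal library was the one with the shallow notch, at 0.946%. The aged one, at 10.6% ± 0.57 (counting error), was above the young non-neuronal library (8.53% ± 0.57). Counting error does not separate the aged neuronal from the aged non-neuronal library (11.1% ± 0.58).

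**Figure D5:**
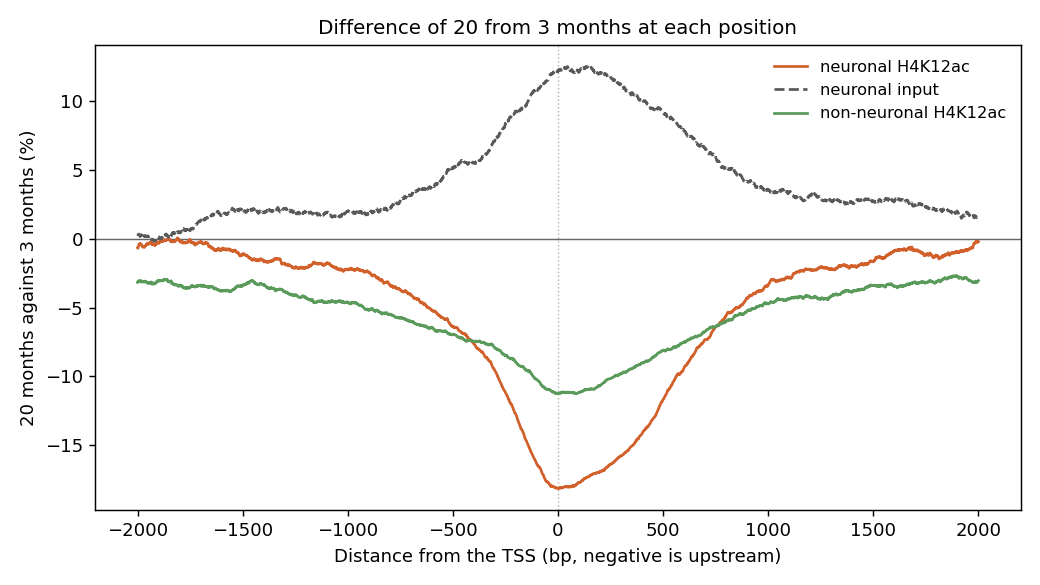
Difference of 20 from 3 months in percent at each position, against distance from the TSS in bp, for neuronal H4K12ac (orange), neuronal input (dashed grey) and non-neuronal H4K12ac (green). Near the TSS the neuronal H4K12ac line reaches -18.2%, the input line 12.6% and the non-neuronal line -11.3%.

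Another neuronal profile came from mice of 20 months given SAHA, a histone deacetylase inhibitor, in the same vehicle. The aged vehicle library was the lowest of these 3 neuronal H4K12ac libraries at 1600 of 1600 positions within 800 bp of the TSS, and at 2046 of 4001 positions over the whole window. Over the flank the SAHA library was the lowest, at 5.05 against 5.14 in the young and 5.10 in the aged vehicle library. In the first 100 bp downstream the aged SAHA library was at 12.2, between 10.5 and 12.8. Its notch was 3.92% ± 0.66 deep (counting error), also between the young and the aged vehicle libraries. Its width at 50% of the rise was 921 bp, below both the young (955 bp) and the aged vehicle profile (1083 bp). The input of the SAHA mice was close to the young input, with a maximum of 4.26 against 4.20, and below the aged vehicle input at 4.69.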

How the data were processed

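The submitters' processing notes name CASAVA 1.8.2, Bowtie2 and build mm10. Chromatin was sonicated to about 300 bp, per the labels' protocols. The authors deposited a normalized signal, per the file headers, with 1 value per position (0 is absent). Its scaling factor, the set of TSS and the treatment of duplicates are stated neither there nor in the labels used here.

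Steps between neighbouring positions were whole multiples of 1 unit (tolerance 0.1) at 100% of positions. The unit was taken as 1 read, counted over 300 bp, the lag at which steps were most negatively autocorrelated. Its inverse, the divisor, was 36400000 to 78000000 over all libraries. Counting errors use the unit and the over-dispersion of the steps (1.57 to 1.73). Read centres were obtained by adding up steps 300 bp apart from either end, taking starts there as even, and averaging both. Both calculations were run on simulated data. The simulated reads started evenly at the upstream end, so the simulation could not check that assumption there. Region values are means over positions, folds are ratios of means, and no test was made with 1 library per group. Named features followed a fixed rule: maxima, extremes and crossings of the difference, positions at set shares of the rise, and region means. Gene and marker lists could not be used, as the profiles hold no genes. The comparison, regions and features were chosen with earlier results of these data known, and read centres, their windows and the notch after the profiles were seen. Alternatives were H4K12ac alone, input subtracted, other windows, scaling to the flank, 1 input for both libraries, other width definitions and other ways to obtain the notch. Python 3.11.15, NumPy 2.4.6 and Matplotlib 3.10.9 were used.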

Additional observations from a re-analysis of the deposited data

Results flagged for a closer look

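The age difference of the inputs went opposite ways in the populations, higher at 20 months in neuronal and lower in non-neuronal nuclei, which no test could address with single libraries and which was not tested. Within 500 bp of the TSS it was a log2 of 0.13 in neuronal and -0.12 in non-neuronal nuclei, apart by 0.25. In the first 500 bp downstream it was 0.15 and -0.14, apart by 0.30, and in the 500 bp upstream 0.11 and -0.093, apart by 0.21. The inputs of the SAHA mice, also 20 months old, stood otherwise. In neuronal nuclei the SAHA input had a maximum of 4.26, near the young input (4.20) and below the aged vehicle input (4.69). In non-neuronal nuclei its maximum was 4.87, above both the young (4.60) and the aged vehicle input (4.20). The direction in each population is thus that of the vehicle inputs. By maximum, the SAHA input was near the young input in neuronal nuclei and above it in non-neuronal nuclei.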

How the results depend on the processing

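Of 26 alternative values, 7 stayed within the 95% counting interval of the value reported, 18 moved in the same direction and 1 changed sign. The log2 age difference within 500 bp (-0.36 over own input) was -0.22 for H4K12ac alone, -0.46 with input subtracted and -0.21 over own flank. It was -0.33 with both H4K12ac and input over own flank, -0.43 within 200 bp and -0.27 within 1000 bp. With the 3-month or the 20-month input for both libraries it was -0.222 or -0.221, largely repeating H4K12ac alone because a shared input nearly cancels. For H4K12ac alone, with input subtracted and over own flank it was -0.25, -0.48 and -0.24 downstream (-0.41 over own input) and -0.18, -0.42 and -0.18 (-0.175) upstream (-0.30). Neuronal minus non-neuronal, -0.33 over own input, was -0.078 for H4K12ac alone and -0.12 over own flank, so most of it rests on the inputs. The difference in width was 193 bp over own input. At 75% of the rise it was -5 bp, too small against the counting errors of those widths (2.2 and 2.0 bp) to give an order. The cause was not tested. The difference in notch depth was 15.8 points over own input and between 7.99 and 9.78 points in the 4 other alternatives, all chosen after the data were seen. These include recovery from either end alone, which the value reported averages, so they are not independent of it. Leaving out a replicate was not run, with 1 library per group, and a pseudocount or filter applies to tables of genes. No paired analysis was possible because each group has 1 library. Counting errors are far below the differences in signal near the TSS. Whether the 1.80-fold difference of the H4K12ac divisors bears on the level was not tested, and variation between animals is not measured.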
